A study of Mus musculus with 4 samples.

Results

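Late 2-cell blastomeres (L2C) were compared with mouse embryonic stem cells (mESCs), first by the level of each gene and then by the isoform that each used of the genes they share. The members were the 11 columns named for late 2-cell blastomeres, from 6 embryos, and the 5 columns named for embryonic stem cells, together 16 of the 161 single cells in the gene and isoform tables. Embryo 1 was represented by 1 blastomere and each of embryos 2 to 6 by both sister blastomeres. The single cells had been amplified with barcoded gel beads, pooled and read as full-length cDNA on a PacBio sequencer (HIT-scISOseq), so each molecule was counted by its unique molecular identifier (UMI) and carried its splice junctions and ends.

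The embryos came from superovulated C57BL/6J females mated with DBA/2NCrl males per the methods, and the labels give the strain as DBA/2J x C57BL/6J. They were untreated after collection and carried no named allele. The mESCs were the male line E14Tg2A, kept on gelatin in medium with serum, also with no named allele or treatment. The 5 mESCs stand for 1 culture of 1 line, which was counted as 1 sample and assumed to vary as an embryo does. The p-values therefore compare the embryos with this culture, and strain and culture cannot be told apart from cell type.

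At the late 2-cell stage the mouse embryo transcribes its own genome in a burst, while much of the RNA stored by the oocyte is removed. Each blastomere at this stage is called totipotent, since it can give rise to embryonic and extraembryonic tissues. mESCs are derived from the inner cell mass of the blastocyst and are called pluripotent. They divide quickly and are held in this state by a network of transcription factors around Pou5f1 (Oct4), Sox2 and Nanog. A small share of the cells in mESC cultures is known to re-enter a 2-cell-like state marked by Zscan4 genes.

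All levels are copies per 100,000 UMIs of a cell. L2C values are the mean ± SD over embryos, each embryo being the mean of its blastomeres, and mESC values are the mean of the 5 cells. The blastomeres held 17971 to 67963 gene UMIs and the mESCs 14267 to 25042, so that 3 counts over a whole group correspond to 0.500 copies in L2C and 2.90 copies in mESC. Intervals and such floors cover counting error only. Correlations between cells over genes, which are not independent replicates, ran from 0.798 to 0.832 for the 5 pairs of sister blastomeres, from 0.687 to 0.795 between embryos 2 to 6, from 0.617 to 0.699 among mESCs and from 0.0913 to 0.312 between the blastomeres of embryos 2 to 6 and mESCs. The blastomere of embryo 1 stood apart from the other embryos, at 0.538 to 0.634, and was the shallowest. None of the 16 cells shared a barcode with another cell of the table. By the run number in their barcodes, all 5 mESCs belonged to run 3, and 1, 4 and 6 of the L2C to runs 1, 2 and 3. The 6 L2C of run 3 shared it with the mESCs, but the barcodes were not linked to the named columns, so no values within a run are given.

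The marker genes were rare in both groups. Zscan4d, a regulator of the 2-cell burst, was listed at 0, 1.004, 3.55, 7.51, 0 and 1.61 copies in embryos 1 to 6 and at 0 in every mESC. The 5 Zscan4 genes of the table together held 35 UMIs in the L2C and 0 in the mESCs, with 0 in embryo 5. Zfp352, another 2-cell gene, held 6 UMIs in 4 of 6 embryos and 0 in mESC. Sox2 was at 0 in all 6 embryos and at 13.2, 8.61, 3.99, 21.8 and 0 copies in the mESCs, a level at least 19.04-fold higher than in L2C. Nanog was likewise at 0 in every embryo, with 6 UMIs in 3 of 5 mESCs. None of Zscan4d, Zfp352, Sox2 and Nanog reached the level needed to be tested. Each of the 4 was detected only in the group that its known role fits, at the edge of detection. The L2C means of Zscan4d and Zfp352, 2.28 and 0.883 copies, lie below the mESC floor of 2.90 copies. Their 0 in mESC therefore cannot show a difference. Zscan4d had a median of 5.45 copies in early 2-cell embryos, against 1.31 in the late ones.

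A gene counted as called where its log2 difference exceeded 1 in either direction with p under 0.01, by limma on log2(copies + 1), among the 3552 genes whose 2 group means averaged at least 5 copies. Of these, 786 were called (22.1%), 488 higher in L2C (13.7%) and 298 higher in mESC (8.39%). The calls of each gene list are set against these shares. The 6 embryos and 5 mESCs did not overlap for 601 genes in the direction of L2C (16.9%) and for 500 in that of mESC (14.1%). The share of the calls that was higher in L2C, 62.1%, depended on the scale: it was 55.9% with TMM scaling, 43.7% with edgeR and 25.9% with DESeq2 on the recovered UMIs, and 76.9% and 43.5% with pseudocounts of 0.1 and 5. TMM scaling moved the median log2 difference of the tested genes from 0.08 to −0.13. No called gene named here changed direction under any setting run.

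The genes with the largest differences towards L2C, among those with at least 20 copies and no overlap of the samples, were mostly undetected in the mESCs. Exoc3l2, a relative of an exocyst subunit gene, was at 27.8, 63.7, 60.4, 56.1, 35.2 and 71.7 copies in embryos 1 to 6 and at 0 in all 5 mESCs, at least 18.1-fold higher in L2C (log2 difference 5.67, SE 0.53, limma adjusted p = 0.000441). All embryos were high, and the lowest was embryo 1. Atp13a3, a transporter of the P5 ATPase family, stood at 43.4 ± 8.58 copies against 0 (at least 14.99-fold), and Pphln1, a subunit of the HUSH silencing complex, at 39.8 ± 5.02 against 0 (at least 13.8-fold). Foxr1, a forkhead factor, was at 37.4 ± 12.9 against 0, and Slc34a2, a sodium-phosphate cotransporter, at 29.2 ± 5.04 against 0. Every embryo had more than every mESC of each of these genes, as the rule of choice required. Bnip3, a gene of mitophagy, and mt-Atp8, a mitochondrial gene, were also among the 12, with 1 and 3 UMIs in the mESCs, and Fcgr3, an Fc receptor, with 0.

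Early 2-cell embryos (5 embryos) are set beside these values without a test. In them Exoc3l2 lay between 0 and 0.543 copies and Slc34a2 between 0 and 1.63. B020004C17Rik, from the list of 2-cell genes, had the same order: it was at 111, 171, 185, 148, 139 and 201 copies in the 6 late 2-cell embryos, at 0 to 5.76 copies in the early ones, and at 0, 0, 7.99, 5.46 and 7.01 in the mESCs, a 38.9-fold difference between L2C and mESC (log2 4.95, SE 0.36, limma adjusted p = 0.000127). Ctsc, which encodes the protease cathepsin C, was at 62.3 ± 28.2 copies in L2C with 1 UMI in the mESCs, a ratio of 65.8 with a counting interval of 11.7 to 2607. Gm10436 and Mospd1 showed the other order, with 205 to 263 and 69.0 to 78.1 copies in early 2-cell embryos and 35.8 ± 14.4 and 34.2 ± 22.0 in late ones. Over the 488 genes called higher in L2C, every early 2-cell embryo lay below every late one for 294 genes and above for 23. These genes were picked for high values in L2C, which favours lower values in a neighbouring stage. Over the 298 genes called higher in mESC, the early embryos lay below for 67 genes and above for 31. The same count is not given for all tested genes.

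Towards mESC, the largest difference was that of Eno1b, a retrocopy of the glycolytic enolase gene Eno1. It was at 480, 387, 288, 317 and 435 copies in the mESCs and at 0, 0, 0, 0, 0.784 and 1.47 in embryos 1 to 6. With 3 UMIs in L2C its ratio was 754, with a counting interval of 256 to 3673 (log2 difference −8.22, SE 0.59, limma adjusted p = 0.000117). Reads of near-identical copies can be split or moved between them, so the level of Eno1b is uncertain, but Eno1 itself also differed, at 6.24 ± 4.31 against 93.0 copies. Utf1, a chromatin factor of pluripotent cells, was at 145, 55.9, 132, 137 and 63.1 copies in the mESCs and at 0 in every embryo, at least 213-fold higher (limma adjusted p = 2e-06). Stmn2, a regulator of microtubules, was at 57.3 copies against 0, at least 115-fold higher. Where all embryos are at 0 the fit sees no spread among them, and its SE rests on that of the other genes.

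Other genes of this set were Zfp42 (Rex1), a marker of naive pluripotency, at 111 copies in mESC against 1.82 ± 2.26, and Tdgf1, a co-receptor of Nodal, with 76 UMIs in the mESCs and 3 in the L2C. Spp1 (osteopontin), Ldha (lactate dehydrogenase A), Tmsb4x (thymosin beta 4), Ifitm2, Bex3, Tceal9 and Selenoh completed the 12. Bex3, Stmn2 and Tceal9 were also at 0.551 copies or less in every early 2-cell and 4-cell embryo, whereas Spp1 reached a median of 67.6 copies in the 13 blastocyst cells. The calls of all 24 genes of both directions were the same with edgeR and with DESeq2, and held for 23 when every cell was thinned to the same number of UMIs and for 20 with a pseudocount of 0.1.

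**Figure D1:**
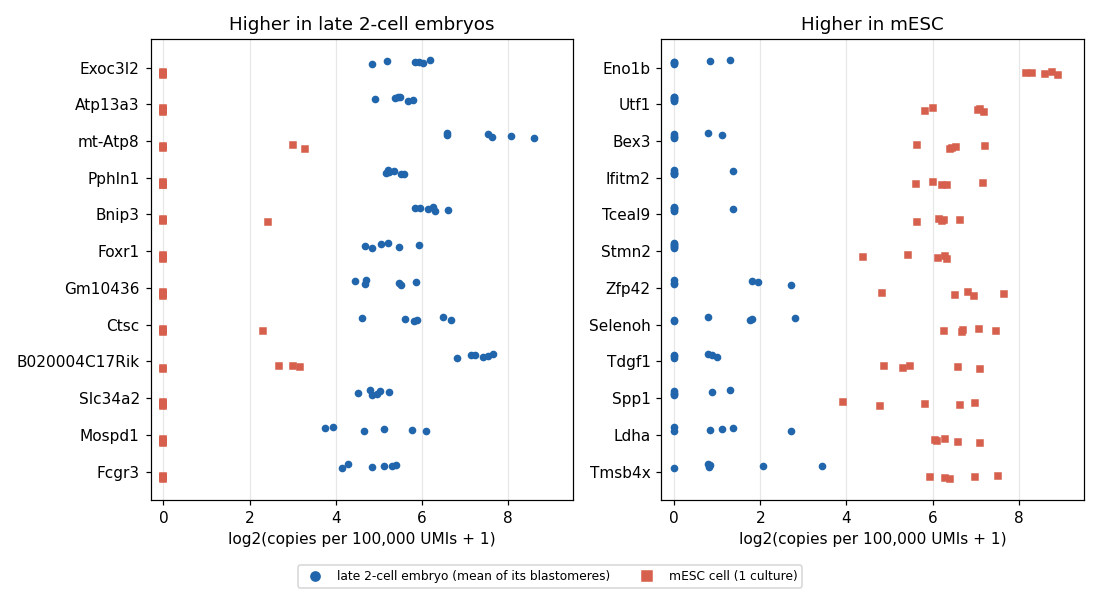
Levels of the 12 genes with the largest log2 difference in each direction, as log2(copies per 100,000 UMIs + 1) on the horizontal axis. Blue points are the 6 late 2-cell embryos and red squares the 5 mESC cells. The genes were picked for no overlap of the groups, so their separation follows from that choice. Most of the lower group sits at 0.

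The list of 2-cell burst genes was read with the calls of all genes. Of its 42 genes in the table, 7 were high enough to be tested, and 3 of these were called higher in L2C (B020004C17Rik, Sp110 and Pramel7) and 0 higher in mESC, against 13.7% and 8.39% of all genes. The median log2 difference of the 7 was 2.84, against 0.08 over all tested genes. Summed over the list, the embryos held 278 to 506 copies and the mESCs 16.4 to 59.9, without overlap. B020004C17Rik alone, with a mean of 159 copies, made up much of the L2C mean of 349. Early 2-cell embryos held 482 to 613 copies of the list (median 492, against 325 in the late ones), and blastocyst cells 114 to 194. Most of the early sum was 1 gene, Rfpl4, at 335 to 384 copies in the early embryos and 13.4 ± 9.57 in the late ones. The order of these 2 sums therefore does not speak for the other members. Most members were too rare to test: 34 of the 42 were at 0 in every mESC, and 5 were at 0 in both groups. Tcstv3, for example, had 29 UMIs in L2C and 0 in mESC, but 20.6 of its copies lay in embryo 4. AF067063 was at 25.1 ± 23.0 copies against 0 and was not called (limma adjusted p = 0.169), with embryo 1 at 0 and embryo 4 at 66.2.

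Among the Obox genes, homeobox factors of the egg and early embryo, 2 of 5 tested members were called. Both were higher in L2C, against 13.7% of all genes, and the list median was −0.17. Obox6 was at 64.0 ± 14.6 copies in L2C against 6.19 in mESC (log2 difference 3.15, SE 0.37, limma adjusted p = 0.00134), and Obox8 at 39.0 ± 18.4 against 1.97. Both were at 0 to 3.78 copies in early 2-cell embryos. Obox1, Obox2 and Obox5, which early 2-cell embryos held at 164 to 381 copies, were at 9.11 to 21.4 copies in L2C and at 16.8 to 22.7 in mESC and were not called.

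RNA stored by the oocyte was read as a list of maternal genes. Of 17 tested, 2 were called higher in L2C and 0 higher in mESC, against 13.7% and 8.39% of all genes. Dppa3 (Stella), which protects the maternal genome from demethylation, was at 759.6 ± 139 copies against 42.5. Zp3, a zona pellucida protein, was at 25.02 ± 10.4 against 1.40. The median log2 difference of the list was −0.16. Omt2a, at 111 to 910 copies in the embryos and 34.4 to 55.9 in the mESCs, varied too much between embryos to be called (limma adjusted p = 0.105). Btg4, which directs the removal of maternal RNA, was at 48.2 ± 29.0 against 46.9 copies.

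That oocyte genes were present in the mESCs at all is a measured feature of these 5 libraries. Of 15 maternal genes with at least 100 copies in the 10 oocytes, 13 had UMIs in all 5 mESCs. The 15 stood at 0.796% to 11.9% of their oocyte level in mESC (median 4.90%), the lowest being Rgs2, seen in 1 mESC. In L2C they stood at 0.189% to 68.0% of it (median 6.31%). The sum of the 15 genes was 437 to 627 copies in the mESCs, 1302 to 2655 in the embryos and 11232 in oocytes. H1foo, the linker histone of the oocyte, was at 32.8 to 71.9 copies in every mESC. The part that RNA or barcodes passed between pooled cells might have in these values was not tested. Markers of other cells were nearly absent: the summed markers of differentiated cells, fibroblasts and cumulus cells were at 0.0223% of gene UMIs or less in every sample, with 11 of 12, 8 of 9 and 6 of 7 of their genes at 0 in all mESCs and 6, 4 and 4 at 0 in all L2C.

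The pluripotency list split in both directions. Of 27 tested genes, 12 were called higher in mESC (44.4% of the list against 8.39% of all genes) and 5 higher in L2C (18.5% against 13.7%), with a median log2 difference of −2.20. Beside Utf1, Zfp42 and Tdgf1, the genes higher in mESC included Pou5f1, Klf2, Nr0b1, Tdh, Gdf3, Trim28, Id1 and Id3. Pou5f1, the core factor of the network, was at 70.4, 64.5, 55.9, 54.6 and 77.1 copies in the mESCs and at 11.1, 0, 0, 2.48, 0.861 and 0 in embryos 1 to 6 (log2 difference −4.98, SE 1.303, limma adjusted p = 0.0297). Nr0b1 (Dax1), an orphan nuclear receptor, was at 21.5 copies against 0, and Tdh, the threonine dehydrogenase on which mESCs depend, at 66.0 against 3.69 ± 3.70. Dppa5a was the most abundant gene of the list, at 280 to 1104 copies in mESC and 70.2 to 367 in L2C, and was not called.

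The 5 genes in the other direction were Dppa2, Dppa4, Fbxo15, Rif1 and Nr5a2. Dppa2 and Dppa4, a pair of chromatin proteins known to switch on 2-cell genes, were at 57.9 ± 13.0 against 11.1 copies (log2 difference 2.25, SE 0.38, limma adjusted p = 0.00670) and at 76.9 ± 14.5 against 25.7 (1.53, SE 0.33, adjusted p = 0.0148). Both lay under 10.5 copies in every early 2-cell embryo. Nr5a2, an orphan nuclear receptor of genome activation, was at 7.51 to 17.5 copies in every embryo and at 0 in the mESCs. Fbxo15, an F-box protein, was at 71.6 ± 24.4 against 15.9 copies, and Rif1, a regulator of replication timing that represses Zscan4 genes in mESCs, at 29.9 ± 10.3 against 4.07.

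Chromatin genes were read as lists of Polycomb, DNA methylation and histone variant genes. Of 19 tested genes of the Polycomb list, which also holds Cbx5 of the HP1 family, 6 were called higher in L2C and 1 higher in mESC, against 13.7% and 8.39% of all genes. The median log2 difference was 1.02, and without embryo 1 a second gene was called higher in mESC. Those higher in L2C were Suz12 and Aebp2 of complex PRC2 and Rnf2, Bmi1, Pcgf1 and Pcgf5 of PRC1. Bmi1 was at 51.3 ± 29.6 copies with 1 UMI in the mESCs, Pcgf1 at 55.6 ± 14.8 against 7.51, and Suz12 at 41.3 ± 12.2 against 6.52. The gene higher in mESC was Epop, a modulator of PRC2, at 12.4 copies against 0.123 ± 0.302. Eed, a core subunit of PRC2, was at 10.8 ± 5.80 against 32.9 copies and was not called (limma adjusted p = 0.106). None of the 5 tested genes of DNA methylation and demethylation was called, against 22.1% of all genes. At a limma adjusted p of 0.382 or more, Dnmt1, Dnmt3l, Tet3, Mbd3 and Zfp57 were at 3.34 to 20.5 copies in mESC and 7.36 to 9.72 in L2C. Of 8 histone variant genes (median log2 difference 0.13), 1 was called higher in L2C and 1 higher in mESC, against 13.7% and 8.39% of all genes. Cenpa, the histone of the centromere, was higher in L2C (59.2 ± 13.2 against 17.9). H2afx, which marks DNA breaks, was higher in mESC (31.3 against 1.38 ± 0.768, with 1 mESC at 0). H3f3a and H3f3b, which both encode histone H3.3, were at 183 ± 75.4 against 177 and at 255 ± 66.5 against 132 copies, neither called.

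**Figure D2:**
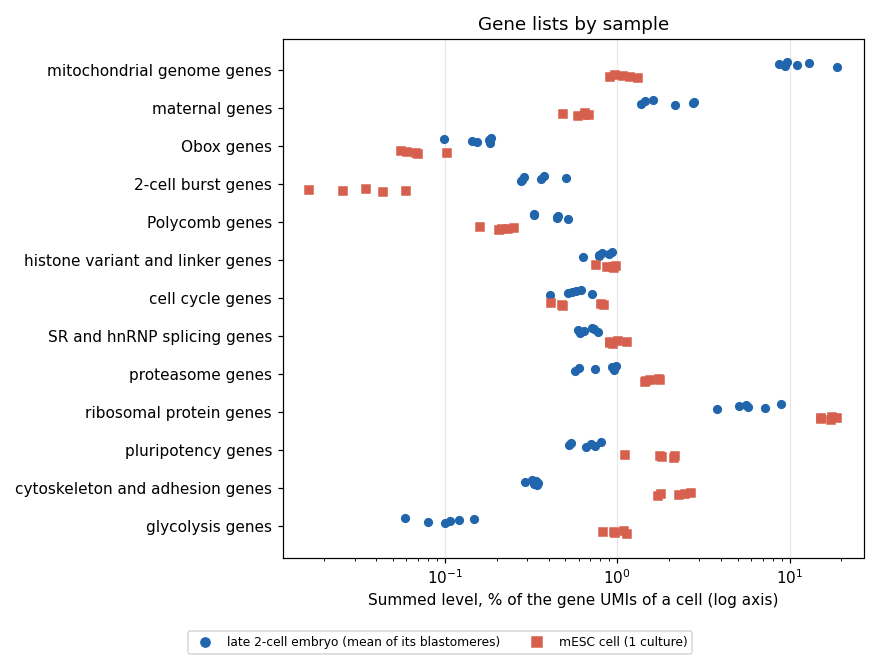
Summed level of each gene list as a percentage of the gene UMIs of a cell (log axis), for the 6 late 2-cell embryos (blue points) and the 5 mESC cells (red squares). Mitochondrial genome genes lie between 8.74% and 18.9% in the embryos and between 0.904% and 1.32% in the mESC cells, glycolysis genes between 0.0588% and 0.148% and between 0.825% and 1.15%, and cell cycle genes overlap.

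The lists of energy metabolism separated the groups. The 12 tested genes of the mitochondrial genome, which encode subunits of the respiratory chain, were all called higher in L2C, with a median log2 difference of 3.47. Of all genes, 13.7% were called in that direction. mt-Atp6 was at 2362 ± 878 copies against 177, mt-Cytb at 2049.6 ± 845 against 217 and mt-Co1 at 1931 ± 568 against 237. Together these genes made up 8.74% to 18.9% of the gene UMIs of an embryo, with embryo 1 highest, and 0.904% to 1.32% of those of an mESC. Early 2-cell embryos held 3159 to 6897 copies of them, blastocyst cells 1755 to 4826, late 2-cell embryos 8738 to 18864 and mESCs 904 to 1320.

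Glycolysis genes ran in the opposite direction. Of 13 tested, 8 were called higher in mESC and 0 higher in L2C, against 8.39% and 13.7% of all genes. Without embryo 1 the number higher in mESC was 12. The median log2 difference was −2.98. Ldha, which turns pyruvate into lactate, was at 65.5 to 136 copies in every mESC and at 5.56, 0, 0.790, 1.17, 1.57 and 0 in embryos 1 to 6 (log2 difference −5.48, SE 0.95, limma adjusted p = 0.00699). Aldoa (aldolase) was at 94.2 against 3.81 ± 1.84 copies and Pgam1 (phosphoglycerate mutase) at 98.1 against 22.5 ± 12.3. Pkm (pyruvate kinase) was the most abundant, at 284 to 387 copies in mESC and 0 to 37.4 in L2C, but was not called (limma adjusted p = 0.0676). The summed list did not exceed 148 copies in any late 2-cell embryo, against 213 to 378 in early 2-cell embryos, 81.4 to 209 in blastocyst cells and 825 to 1148 in mESCs. Ldhb, the other lactate dehydrogenase, was at 177 to 338 copies in the early 2-cell embryos, 15.9 ± 8.91 in L2C and 113 in mESC.

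Of 84 tested ribosomal protein genes, which serve protein synthesis, 27 were called higher in mESC (32.1%, against 8.39% of all genes). Only 1, Rpl39l, was called higher in L2C (against 13.7%). In every mESC 58 of these genes were higher than in any embryo, against 14.1% of all genes. The median log2 difference was −1.73. Rpl36 was at 370.0 copies against 47.6 ± 16.9 (log2 difference −3.00, SE 0.49, limma adjusted p = 0.00562) and Rps28 at 332 against 42.7 ± 13.7. Rpl39l, a paralogue of Rpl39 used in the germ line, was at 53.4 ± 12.2 copies in L2C against 7.35. The list made up 3.77% to 8.89% of the gene UMIs of an embryo and 15.2% to 18.9% of those of an mESC, with early 2-cell embryos at 755 to 1087 copies and blastocyst cells at 14089 to 18089. Processed copies of ribosomal protein genes can share their reads, so single values are uncertain.

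Of 31 tested proteasome genes, 4 were called higher in mESC (12.9%, near the 8.39% of all genes) and 0 higher in L2C (against 13.7%), with a median of −1.17. The 4 called genes were Psma2, Psma5, Psmd2 and Psmd13, and Psma2 was at 91.5 copies against 40.5 ± 6.65. In every mESC 14 of the 31 were higher than in any embryo, against 14.1% of all genes, and 0 lay the other way, against 16.9%. The list made up 0.568% to 0.986% of the gene UMIs of an embryo and 1.46% to 1.76% of those of an mESC. Of 31 tested splicing factor genes of the SR and hnRNP families, 1 was called higher in mESC and 0 higher in L2C, against 8.39% and 13.7% of all genes. The called gene was Srsf3, at 79.2, 94.7, 95.8, 87.4 and 77.1 copies in mESC and 2.75 to 11.1 in the embryos (log2 difference −3.50, SE 0.69, limma adjusted p = 0.0111). Srsf10 was at 41.4 ± 20.3 in L2C against 7.14 copies and was not called. The median of the list was −0.50, and without embryo 1 its calls were 1 higher in L2C and 3 higher in mESC.

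Of 25 tested cell cycle genes (median −0.79), 2 were called higher in L2C and 4 higher in mESC, against 13.7% and 8.39% of all genes. Ccnb1 and Ccna2, the cyclins B1 and A2 of the G2 phase and mitosis, were called higher in L2C, at 134 ± 37.6 against 36.6 copies and 71.5 ± 11.1 against 17.5. Cdk4, the kinase of the G1 phase, and Mcm4, Mcm5 and Mcm6 of the replicative helicase were called higher in mESC, with Cdk4 at 63.6 against 6.76 ± 1.88. The remaining 19 were not called, and Cdc20 was at 56.0 ± 20.6 against 55.8. The phase of each cell was not tested.

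Of 21 tested genes of the cytoskeleton and adhesion, 11 were called higher in mESC (52.4%, against 8.39% of all genes) and 1 higher in L2C (against 13.7%). The median of the list was −2.78. Tmsb10, which binds monomeric actin, was the most abundant, at 656 to 1248 copies in mESC and 57.0 ± 6.84 in L2C (log2 difference −4.00, SE 0.28, limma adjusted p = 0.000103). Cfl1 (cofilin) was at 185 against 40.8 ± 9.49 copies and Tubb5 (a beta tubulin) at 108 against 15.3 ± 4.00. Epcam, a cell adhesion molecule of epithelia, was the gene higher in L2C, at 15.5 ± 5.12 copies with 3 UMIs in mESC. S100a10 was at 0 in every embryo and at 27.4 copies in mESC.

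The isoform table was then compared in the same way, with a mean of at least 3 copies. Of 3732 tested isoforms, 758 were called (20.3%), 257 higher in L2C (6.89%) and 501 higher in mESC (13.4%). The share of these calls that was higher in L2C, 33.9%, also depended on the setting: it was 56.4% and 16.9% with pseudocounts of 0.1 and 5, 43.9% with edgeR and 51.2% with a mean of at least 20 copies. The table holds only isoforms seen in at least 5 cells of the series, so an isoform used by mESCs alone is listed only if all 5 of them had it. An isoform of L2C could be listed through the 11 blastomeres and the neighbouring stages. The isoforms per gene, the leading shares and the shares of new isoforms given next all rest on isoforms kept in this way, and the part of this filter in their differences was not tested.

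Complexity was set at equal depth, each cell being thinned to 14000 gene UMIs or 10000 isoform UMIs. Embryos 1 to 6 then showed 4394, 4207, 4460.0, 4697, 4197 and 4075 genes per cell (4338 ± 225, n = 6) and the mESCs 3527 to 3772. Isoforms were counted for genes with at least 5 isoform UMIs in a cell, which were 388 to 471 genes in the embryos and 482 to 498 in the mESCs. Such a gene was represented by 3.05 ± 0.163 isoforms in L2C (2.80 to 3.26) and by 2.175 to 2.31 in the mESCs, and its leading isoform held on average 69.9% ± 2.69 of its UMIs in L2C and 82.1% to 84.1% in the mESCs. In each of these measures the 6 embryos and 5 mESCs were separated. An exact permutation test of 6 embryos against 1 culture cannot go below p = 0.143, so no p is given. The same held within genes that both expressed, a comparison chosen after the values were seen: 20 UMIs of a shared gene held 4.22 to 4.91 isoforms in embryos 1 to 6 and 3.41 to 3.48 in mESC, over 26 genes for embryo 1 and 311 to 405 for the others.

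**Figure D3:**
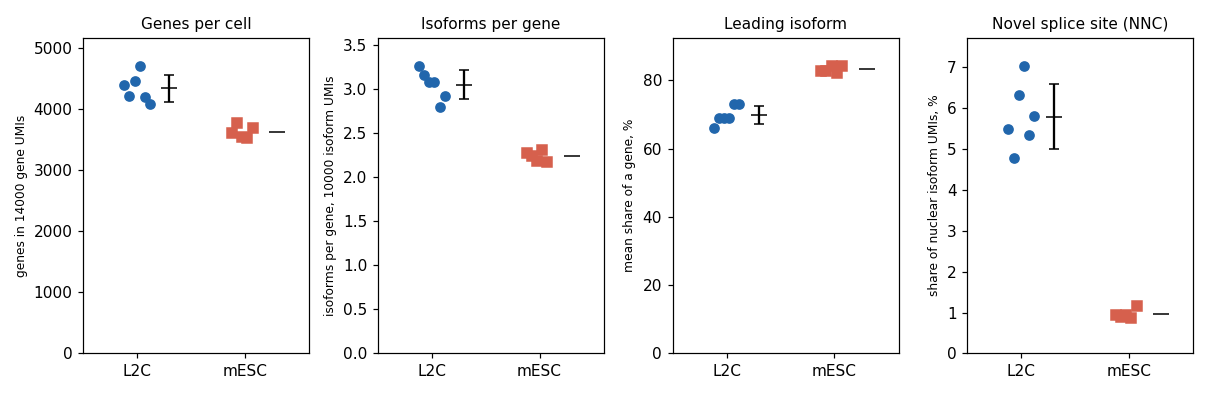
Genes per cell, isoforms per gene, mean share of the leading isoform and share of nuclear isoform UMIs with a new splice site, for cells thinned to the same number of UMIs. Blue points are the 6 late 2-cell embryos with mean ± SD in black, red squares the 5 mESC cells with their mean, and the 2 groups do not overlap in any panel.

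The isoform classes of SQANTI3 compare a molecule with the reference annotation. Molecules whose junctions match a reference transcript in full (FSM) made up 76.8% ± 2.29 of isoform UMIs in L2C and 88.8% to 90.4% in the mESCs. Molecules that match a stretch of one (ISM) made up 14.9% ± 2.01 and 6.40% to 7.40%, and new combinations of known splice sites (NIC) 3.47% ± 0.463 and 2.16% to 2.91%. Molecules with at least 1 new splice site (NNC) made up 4.85% ± 0.809 in L2C, from 4.03% to 6.14%, and 0.866% to 1.15% in the mESCs. Since mitochondrial molecules were so much more frequent in L2C, nuclear genes were also taken alone, after the values were seen: FSM was then 72.1% ± 3.54 against 89.4%, and NNC 5.80% ± 0.789 against 0.966%. The number of exons per nuclear molecule was 5.33 ± 0.283 in L2C and 5.99 to 6.26 in the mESCs, and the mean length 1247 ± 54.1 and 1271 to 1323 bases, where the groups overlapped.

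The isoform used of shared genes was tested in 561 genes with at least 20 isoform UMIs on each side. An isoform switch was called in 1 gene (0.178%), Rpl41, by limma on the shares with a gene-level adjusted p under 0.01. In simulated counts, with the leading isoform swapped for the next one in mESC, the test called 43.5% of the swapped genes. Where their shares lay at least 30 points apart it called 58.7%, so genes without a call may still differ. The simulated embryos differed by counting only and not in their underlying shares, so the recovery in the real data may be lower. The leading isoform differed in 92 genes (16.4%), which is a description, since sampling alone moves the lead between isoforms of similar share. In 61 of the 92, the embryos with at least 5 UMIs and the mESC sum did not overlap in the share of either leading isoform. These genes were picked for their different leaders in the same data, which favours separation. The same count is not given for all 561 genes, so the 61 are a description only.

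Rpl41 encodes a very short protein of the large ribosomal subunit (mm10, chromosome 10, minus strand). Its total level did not pass the test, at 836 ± 234 copies in L2C against 675 in mESC (log2 difference 0.25, SE 0.67, limma adjusted p = 0.816). In embryos 1 to 6, 85.9%, 85.9%, 88.8%, 87.7%, 84.6% and 87.9% of its isoform UMIs came from an NNC isoform with 4 exons (128548101 to 128551972), whose start lies 2667 bases upstream of the annotated start of the gene. In the 5 mESCs that share was 3.28%, 3.70%, 4.40%, 4.71% and 4.08%. The annotated 4-exon isoform (128548108 to 128549331) held 90.5% in mESC (exact binomial 95% interval 88.0% to 92.6%) and 5.19% ± 2.47 in L2C. The gene-level adjusted p was 0.000478, and those of the isoforms 0.000602 and 0.00374 (limma). The embryos were tightly grouped, and no embryo came near an mESC.

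Both Rpl41 isoforms join the same second exon, so that they differ in the first exon and its intron. The first intron spans 128548974 to 128549087 (114 bases) in the mESC isoform and 128548974 to 128551633 (2660.0 bases) in the L2C isoform. The annotated junction is shown as the reference for the mESC isoform, with the last bases of exon 1 in capitals and the first bases of exon 2 in lower case, from GENCODE transcript Rpl41-201.
Rpl41 mESC: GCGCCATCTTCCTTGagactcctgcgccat
Over the other stages the upstream isoform held 29.4% of Rpl41 UMIs in oocytes, 42.0% in early 2-cell embryos, 84.9% in 4-cell and 85.4% in 8-cell embryos, 66.3% in 16-cell embryos and 41.3% in blastocyst cells. Its presence at a few per cent in every mESC stands beside the oocyte genes found there, and how much of it is expressed in these cells was not tested.

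Rplp0, the P0 protein of the ribosomal stalk (chromosome 5, plus strand), had the same kind of start. An NNC isoform beginning 2152 bases upstream held 0%, 28.1%, 60.7%, 46.3%, 43.1% and 43.3% in embryos 1 to 6, and a second one, beginning 2240.0 bases upstream, 40.9%, 0.562%, 1.23%, 34.6%, 28.9% and 29.8%. In the mESCs these held 1.20% (0.518% to 2.34%) and 0.598%, and the annotated leader 59.8% (56.0% to 63.5%), against 14.4% ± 10.1 in L2C. The embryos varied widely in which upstream isoform they used, and the gene did not pass the test (limma adjusted p = 0.109). The annotated first junction of Rplp0-201, at the intron 115559540 to 115559786, reads as follows.
Rplp0 mESC: GCGTCCTCGTTGGAGtgacatcgtctttaa

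Starts far upstream were then counted over the nuclear isoforms, after these values were seen. NNC isoforms that begin at least 500 bases before the annotated start of their gene made up 1.78%, 1.97%, 2.68%, 3.20%, 2.55% and 3.26% of nuclear isoform UMIs in embryos 1 to 6 and 0.0859% to 0.146% in the mESCs. The share was 0.995% in early 2-cell embryos, 2.80% in 4-cell, 2.10% in 8-cell and 1.34% in 16-cell embryos, and 0.706% in blastocyst cells. Rpl41 and Rplp0, which prompted the count, held much of the share of the embryos: without these genes it was 0.793%, 0.637%, 0.825%, 1.41%, 1.17% and 1.25% in embryos 1 to 6, against 0.0523% to 0.101% in the mESCs, 0.953% in early 2-cell embryos and 0.303% in blastocyst cells. The embryos still lay above the mESCs, but no longer stood apart from early 2-cell embryos. Beside Rpl41 and Rplp0, such isoforms of AC168977.1 (208 UMIs in L2C and 1 in mESC), AC133103.5 (153 and 0), Guca1a (118 and 1), Ppm1a (110 and 0), Rbm8a (77 and 0) and Gpbp1 (83 and 0) were seen in all 6 embryos. With all classes together, starts at least 500 bases upstream overlapped between the groups, at 5.84% to 8.32% in the embryos and 5.87% to 6.88% in the mESCs.

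Among the other genes with a different leader, chosen after the values were seen, Eloc (elongin C) came closest to a call. Its leading L2C isoform held 78.4%, 76.6%, 81.8%, 82.5%, 83.9% and 81.2% in embryos 1 to 6 and 31.7% (21.9% to 42.9%, 26 of 82 UMIs) in mESC. The mESC leader held 36.6% (26.2% to 48.0%) and in L2C 1.38% ± 1.28. The gene-level adjusted p was 0.0209, and 0.00922 with samples weighted by their UMIs (limma), which is below the limit. The isoforms have the same last exons and differ in the first, which joins exon 2 over the intron 16648008 to 16656991 in L2C and 16648008 to 16656821 in mESC (chromosome 1, minus strand). The junctions, with the first exon in capitals, show that 2 different first exons meet the same second exon.
Eloc L2C (Eloc-201): TCTCGGCCTTGCCAGgaaaatactaaagtt
Eloc mESC (Eloc-208): CTGCGGGACTGGCTAgaaaatactaaagtt
In oocytes, early 2-cell, 4-cell, 8-cell and 16-cell embryos and blastocyst cells the L2C leader of Eloc held 52.0% to 82.6% and the mESC leader 0.232% to 2.03%.

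Inner exons differed in Tcp1, a subunit of the TRiC chaperonin (chromosome 17, plus strand). The L2C leader joins its first exon across the intron 12916630 to 12918042 and held 28.3% ± 8.64 in L2C against 9.62% (3.20% to 21.0%, 5 of 52 UMIs) in mESC. The mESC leader carries a further exon between the introns 12916630 to 12917797 and 12917884 to 12918042, and held 55.8% (41.3% to 69.5%) against 18.7% ± 11.4. The 3 junctions are given with the upstream exon in capitals, and they differ in whether the exon beginning ttatgg is kept.
Tcp1 L2C (Tcp1-201): TCCGCTCCCAGAATGgatgtaaccattact
Tcp1 mESC, entry (Tcp1-202): TCCGCTCCCAGAATGttatggctgcagctt
Tcp1 mESC, exit (Tcp1-202): GTGGATGATATTGGTgatgtaaccattact
Tcp1 did not pass the test (limma adjusted p = 0.158). In oocytes and early 2-cell embryos, with 54 and 22 UMIs, its L2C leader held 3.70% and 4.55%, in 4-cell embryos 17.5% and in blastocyst cells 3.52%.

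The last exons differed in Npm1 (nucleophosmin, chromosome 11, minus strand) and Hnrnpa1 (a splicing regulator, chromosome 15, plus strand). The L2C leader of Npm1 ends 2437 bases upstream of the mESC leader in an exon of its own, and held 39.3% ± 7.53 against 23.9% (19.5% to 28.8%), while the mESC leader held 63.7% (58.4% to 68.8%) against 30.8% ± 10.1. That of Hnrnpa1 ends 1739 bases downstream, and held 48.5% ± 15.05 (n = 5) against 5.66% (1.18% to 15.7%, 3 of 53 UMIs). The gene-level adjusted p was 0.157 for Npm1 and 0.0491 for Hnrnpa1 (limma), so neither was called. The junctions show the exon that follows in each leader, in lower case after the shared exon in capitals.
Npm1 L2C (Npm1-204): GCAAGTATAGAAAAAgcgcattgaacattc
Npm1 mESC (Npm1-201): GCAAGTATAGAAAAAggcggttctcttccc
Hnrnpa1 L2C (Hnrnpa1-203): ATTACATACAGCCAGgaaggaatctgctat
Hnrnpa1 mESC (Hnrnpa1-201): ATTACATACAGCCAGgaaacaaagcttagc
In Srsf7, by contrast, the leaders differed by a splice site 9 bases away, and the shares of the L2C leader overlapped, at 28.9% ± 9.99 in L2C and 25.8% (17.3% to 35.9%) in mESC. Its mESC leader held 31.2% (22.0% to 41.6%) in mESC and up to 31.0% in the embryos.

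**Figure D4:**
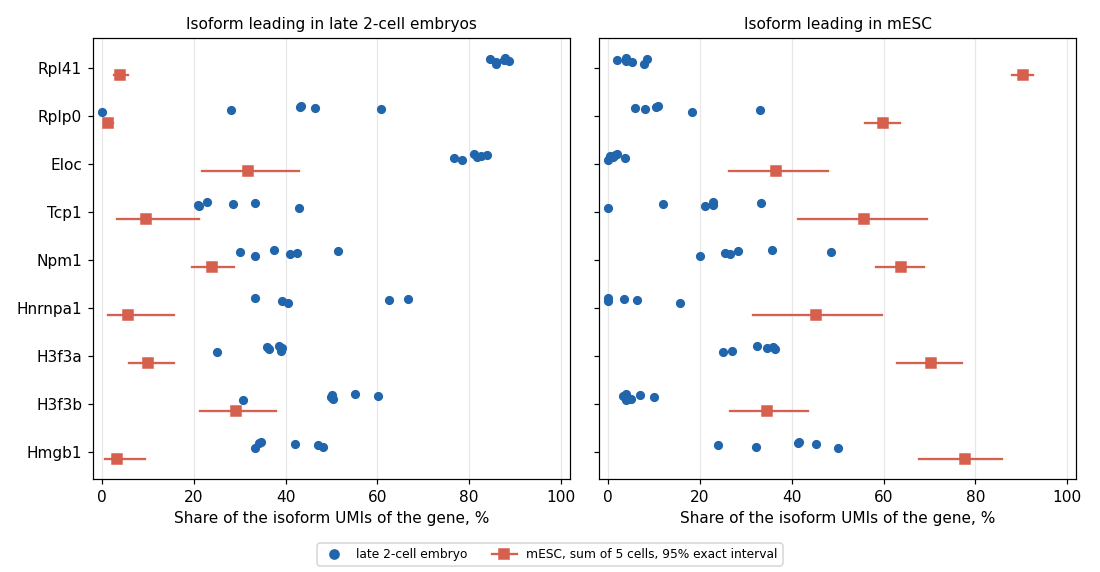
Share of the isoform UMIs of a gene held by the isoform that leads in late 2-cell embryos (left) and by the isoform that leads in mESC (right), for 9 genes. Blue points are embryos, red squares the sum of the 5 mESC cells with the exact 95% interval. For Rpl41 the embryos sit at 84.6% to 88.8% on the left with mESC at 3.95%, and for Npm1 and H3f3b the values lie closer together on the left.

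Of the 92 genes with different leaders, 48 had the same introns in both leaders, 21 the same introns where both extend and 23 different introns. The leader in L2C was the shorter molecule in 76 genes, with a median of 1183 bases against 1645. Of the 46 nuclear genes with the same introns, the L2C leader ended upstream of the mESC leader by over 50 bases in 40, downstream in 5 and within 50 bases in 1. The distances ran from 101 to 1259 bases with a median of 219. In 18 of the 45 genes the ends were at most 150 bases apart, and beyond that distance 26 lay upstream and 1 downstream. The part of sequencing run in these ends was not tested.

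H3f3b and H3f3a, the histone genes named above, were among the best covered of these. For H3f3b (chromosome 11) the isoform ending 813 bases further upstream held 49.4% ± 9.97 in L2C and 29.1% (21.4% to 37.9%) in mESC, and the longer one 5.43% ± 2.53 and 34.6% (26.4% to 43.6%). For H3f3a (chromosome 1) the isoform ending 203 bases upstream held 35.7% ± 5.42 against 10.1% (5.97% to 15.6%), and the longer one 31.9% ± 4.79 against 70.4%. The L2C leading isoform of Hmgb1, a chromatin protein, ended 474 bases upstream, with 39.9% ± 6.75 against 3.33% for the shorter isoform. The gene-level adjusted p of H3f3a and Hmgb1 was 0.0491 and that of H3f3b 0.0531 (limma), above the limit. The longer isoform of H3f3a held 70.3% in early 2-cell embryos and 50.8% in blastocyst cells. For H3f3b the order was another: the shorter isoform held 63.7% in early 2-cell embryos, above its L2C mean, and 35.2% in blastocyst cells, and the longer one 23.0% and 20.2%.

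**Figure D5:**
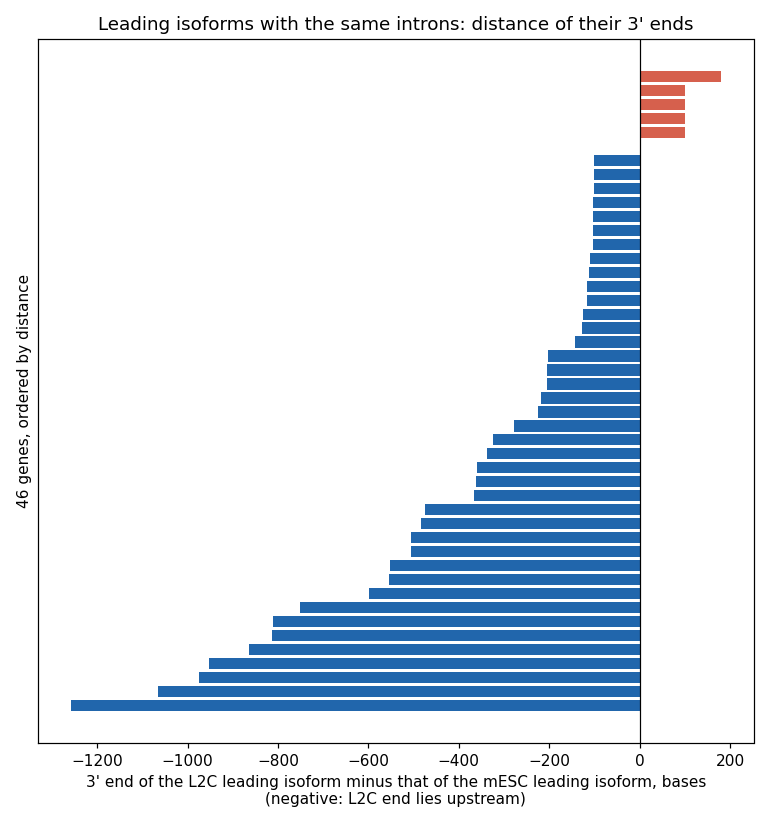
Distance in bases between the 3′ ends of the leading isoforms in late 2-cell embryos and in mESC, for the 46 nuclear genes whose leaders have the same introns. Negative bars (blue) mean that the L2C end lies upstream, in 40 genes, and positive bars (red) that it lies further downstream.

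Polyadenylation signals were then counted at these ends. AATAAA or ATTAAA, searched on the transcript strand in the last 50 bases, was found at 26 of 40 upstream L2C ends (65.0%), at 15 of the 23 mESC ends that a GENCODE transcript covers (65.2%) and at 131 of 214 ends of genes with the same leader in both (61.2%). These 214 are likewise only the ends that a GENCODE transcript covers, out of 469 genes with the same leader. At least 12 A in the next 20 bases, the pattern from which an oligo(dT) primer can start inside a transcript, followed 1 of 39 L2C ends, that of Hmgb1 with 13 A, and 0 of 20 mESC ends. The ends of 2 genes are shown, 5′ to 3′ up to the last base of the isoform, with the signal in capitals where it falls in these 30 bases.
Rbbp7 L2C, chrX:162778783-162778812, plus strand: gttttaaAATAAAgtttgttttgttctttt
Rbbp7 mESC, chrX:162779061-162779090, plus strand: gggctgtaaaAATAAAgcagtgtgtttagc
H3f3a L2C, chr1:180802740-180802769, minus strand: gccagcatttggatttttttaaaataagta
H3f3a mESC, chr1:180802537-180802566, minus strand: tacctgcttctggtctttattattaacctt
The end of H3f3a in mESC has a signal further upstream within its last 50 bases, and the L2C end has none there. Rbbp7, a histone chaperone, has a signal at both ends, 278 bases apart. Its upstream end held 34.8% ± 11.1 in L2C and 23.8% (12.1% to 39.5%) in mESC, which overlap.

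Over all shared genes the mean length of the molecules of a gene was shorter in L2C than in mESC for 71.6%, 80.0%, 80.5%, 76.5%, 70.6% and 75.9% of genes in embryos 1 to 6, with a median log2 length ratio between −0.09 and −0.04. Single mESCs against the other mESCs gave 42.7% to 48.9%. The other stages were also shorter than mESC, with medians over samples of 63.1% of genes in oocytes, 65.8% in zygotes, 68.1% in early 2-cell, 67.5% in 4-cell, 74.8% in 8-cell and 69.2% in 16-cell embryos. The sum of the blastocyst cells gave 78.3%, above the L2C median of 76.2%. Embryos of the same stage also differed, from 52.1% to 85.6% at the 16-cell and from 59.1% to 74.6% at the 4-cell stage. All 5 mESCs came from run 3 and the L2C from runs 1, 2 and 3, and the part of run in these lengths was not tested. This comparison was also chosen after the values were seen, and culture and cell type cannot be told apart in it.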

How the data were processed

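The authors called circular consensus reads, assigned barcodes and UMIs with scISA-Tools, aligned to mm10 with minimap2, collapsed isoforms with cDNA_Cupcake and classified them with SQANTI3; an isoform had to occur in at least 5 cells to be kept. The deposited values are copies per 100,000 UMIs of each cell, that is CPM divided by a constant. Coordinates are those of the deposited isoform GTF (mm10), and annotation and sequence came from GENCODE on GRCm38. Every value was a whole multiple of the smallest value of its cell within 0.1, which gave back the UMIs. 22 columns named 32cell and a separate table of intact and split oocytes were not used.

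Cells were grouped by the stage and embryo in their column names. Blastomeres were averaged per embryo and the 5 mESCs as 1 sample. Genes and isoforms were tested with limma 3.58.1 (trend) on log2(value + 1) with Benjamini-Hochberg adjustment over all tested features. Fold changes on this scale understate those of low genes. For isoform shares limma was run after an arcsine square root transform, with gene p by Simes adjusted to under 0.01, isoform under 0.05, a difference of at least 10 points, isoforms of at least 5% and embryos of at least 5 UMIs in at least 4 embryos. edgeR 4.0.16 and DESeq2 1.42.0 on the recovered UMIs were alternatives. Equal depth used 5 random draws. The scripts were tested on simulated data, in which 43.7% of the changed genes and 24% of the changed isoforms were called.

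Genes named are the markers, up to 4 of the most abundant members of each list in each direction, the 12 genes with the largest differences in each direction with at least 20 copies and no overlap, and called switches with different leaders. Further called members of a list, Tcstv3 and Nanog, and the isoforms beyond Rpl41 were chosen after their values were seen. Members and lists were chosen with earlier results of these data known.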

Additional observations from a re-analysis of the deposited data

Results flagged for a closer look

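Among 50 values examined over the 6 embryos, 5 had 1 embryo far from the rest. The chance rate of about 1 in 20 holds only for normally distributed values. It does not apply to genes near 0 in L2C, where UMIs in 1 embryo alone give this result. The summed cumulus cell markers were highest in embryo 4, at 0.002826% of gene UMIs. Ifitm2 was highest in embryo 5, at 1.567 copies per 100,000, and Tceal9 in embryo 3, at 1.58 copies, both with 0 in the other 5 embryos. Ldha was highest in embryo 1, at 5.565 copies, and Tmsb4x in embryo 3, at 9.862 copies. All of these values rest on few UMIs and lie far below the mESC level of the gene, where the gene has one.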

How the results depend on the processing

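The count of called genes, 786, was 1375 with a mean of at least 1 copy (chosen after seeing the data), 1640 with no filter, 263 with at least 20 copies, 1383 with the spread of all stages and 488 with cells thinned to equal UMIs. edgeR called 1098 and DESeq2 794 genes. It ran from 649 to 996 without 1 embryo, where the highest was without embryo 1, and from 790 to 819 without 1 mESC. For isoforms, 758 called, the counts were 1558, 2230, 203 and 1409 under the first 4 of these settings, and 642 to 845 without 1 embryo and 766 to 813 without 1 mESC. The switch of Rpl41 was called under every setting except among FSM isoforms alone, where its upstream isoform is not counted. Weighting by UMIs gave 2 switches (with Eloc), thinning 2 and FSM isoforms alone 3 (Eloc, Ddx5 and Pcna; chosen after seeing the data). The leading isoform differed in 29 genes at 50 UMIs, 38 after thinning and 58 among FSM isoforms, against 92. The difference in genes per cell, 709, was 2806 at the deposited depth and 337 at 5000 UMIs. That in isoforms per gene, 0.814, was 1.41 at the deposited depth, and that in the leading share, −13.3 points, was −17.5. Of the values of named genes under these settings, 2118 kept their status, called or not called, 78 lost a call and 66 gained one. A change of direction was counted only where the gene was called in the main fit or under the setting, and there were 0. No paired analysis was possible because the mESC culture is 1 sample with no number shared with the embryos. The depth of the mESCs, 103590 UMIs in all, limits the isoform shares: the exact interval of a share in mESC, such as 21.9% to 42.9% for Eloc at 82 UMIs, is wide at such counts.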
